A study of Sus scrofa with 12 samples.

Results

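The genes described here are 10 pig genes over which GRID-seq listed several separate chromatin-associated RNAs (caRNAs): SSH2, KMT2E, TTC23, NMRK2, ALPK2, DNMT3A, ZMIZ1, ACOX2, BLCAP and C2CD3. For each gene, all listed RNAs whose interval overlapped the gene on Sscrofa11.1 were taken, together with all H3K27ac loops that had an anchor in the gene or within 1 kb of it. A distinct combination of start, end and strand is called an outline below. Listed RNAs overlapped 1189 RefSeq genes in all, and the 10 genes carried 97 of the 1121 distinct outlines in the lists. The genes were chosen by the number of outlines over them, and that number is therefore given as a description and not tested.

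The study compared skeletal muscle (longissimus dorsi) of Large White (LW) and Meishan (MS) piglets, all male and 2 weeks old, to relate chromatin and RNA contacts to muscle traits. LW is a lean commercial breed and MS a Chinese breed with more intramuscular fat. BL-HiChIP against H3K27ac, a mark of active promoters and enhancers, gave 2 libraries per breed, and so did GRID-seq, for which the labels give cells fixed with DSG and formaldehyde and the methods give powdered frozen muscle fixed with formaldehyde. The methods name 2 male piglets without making plain whether that is per breed or in all, and no source ties a library to an animal, so p-values measure the spread between these libraries, which may be technical.

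GRID-seq ligates an RNA to the DNA it lies near in the fixed nucleus, and most of the RNA caught this way is nascent transcript beside its own gene. Long introns are transcribed along with the exons, so a nascent RNA of a large gene can cover the gene from end to end. RNAs that match an annotated gene carry its name in the lists, and the others carry a Tx number and were outlined anew in each library. The members do unrelated work. KMT2E, DNMT3A and ZMIZ1 act on chromatin, with KMT2E a SET domain protein, DNMT3A a de novo DNA methyltransferase and ZMIZ1 a PIAS-like transcriptional coactivator. SSH2 is a phosphatase that activates the actin-severing protein cofilin, and ALPK2 is an alpha kinase of heart and muscle. NMRK2 is the muscle kinase that feeds nicotinamide riboside into NAD synthesis, and ACOX2 oxidises branched-chain acyl-CoA in peroxisomes. TTC23 and C2CD3 belong to the cilium and centriole, and BLCAP encodes a small membrane protein whose gene hosts the imprinted gene NNAT.

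RNA reads in the lists came to 8181721 and 9943666 for LW and to 7172517 and 9381797 for MS, replicate 1 first here and wherever a pair of values is given. The smallest RNA listed had 432 to 455 reads depending on the library. An RNA that is missing from a library is therefore not shown to be absent there. All 11 skeletal muscle markers found in the gene table were overlapped by a listed RNA, against 0 of 4 adipocyte, 0 of 3 endothelial, 0 of 3 immune, 0 of 2 satellite cell, 0 of 3 neuronal or glial and 1 of 3 fibroblast markers. Among the muscle markers, MYH1, MYH2 and MYH4 had 1 outline each with the same reads in every library, so they do not count separate RNAs. In bulk tissue, fewer cells of a type and less RNA per cell cannot be told apart. The HiChIP lists held 57028 and 43282 loops in LW against 45061 and 33353 in MS.

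Among the 1189 genes, 1062 had 1 outline and 21 had 6 or more. The members had 6 to 18, with ACOX2, BLCAP and C2CD3 at 6. SYNM and LOC102165734, each with 5, lay just below, and KIAA0232 and SPEG with 6 each are not members. The non-members with the most outlines over the 4 libraries were RYR1 (93), LOC106504991 (17), JPH2 (9), LOC106509068 (8) and LOC110259828 (7). LOC106504991 lies inside KMT2E and LOC106509068 inside ALPK2, and these counts are of the same RNAs. The outlines were spread unevenly over libraries: LW replicate 1 listed 29 of them, LW replicate 2 had 34, MS replicate 1 had 20 and the other MS library 27.

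Very few of these outlines recurred with the same borders. Of 91 distinct Tx outlines over the members, 1 was listed in more than 1 library, an RNA of NMRK2 at chr2:74783833-74789697 in both MS libraries. The same was true of 1 of the 384 Tx outlines over the whole genome. When outlines of the same strand that overlapped by at least 50% of both lengths were counted once, the 97 outlines became 49, with 10 left in SSH2, 8 in KMT2E and 2 in C2CD3. Much of the number of outlines is thus the same stretch with borders that shifted between libraries.

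Several neighbouring pieces were separated by small gaps. Within a library and strand, 57 gaps lay between neighbouring Tx pieces of a member, from 77 to 66799 bp, and 24 of them were at most 500 bp. Pieces on either side of such a narrow gap contacted much of the same chromatin: a median of 98.4% of the 1-kb bins of the left piece were also bins of the right piece, and 86.0% the other way. Across wider gaps these medians were 61.5% and 65.8%. No listed RNA had fewer than 22 bins, and how many bins pieces this close would share by position was not tested.

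**Figure D1:**
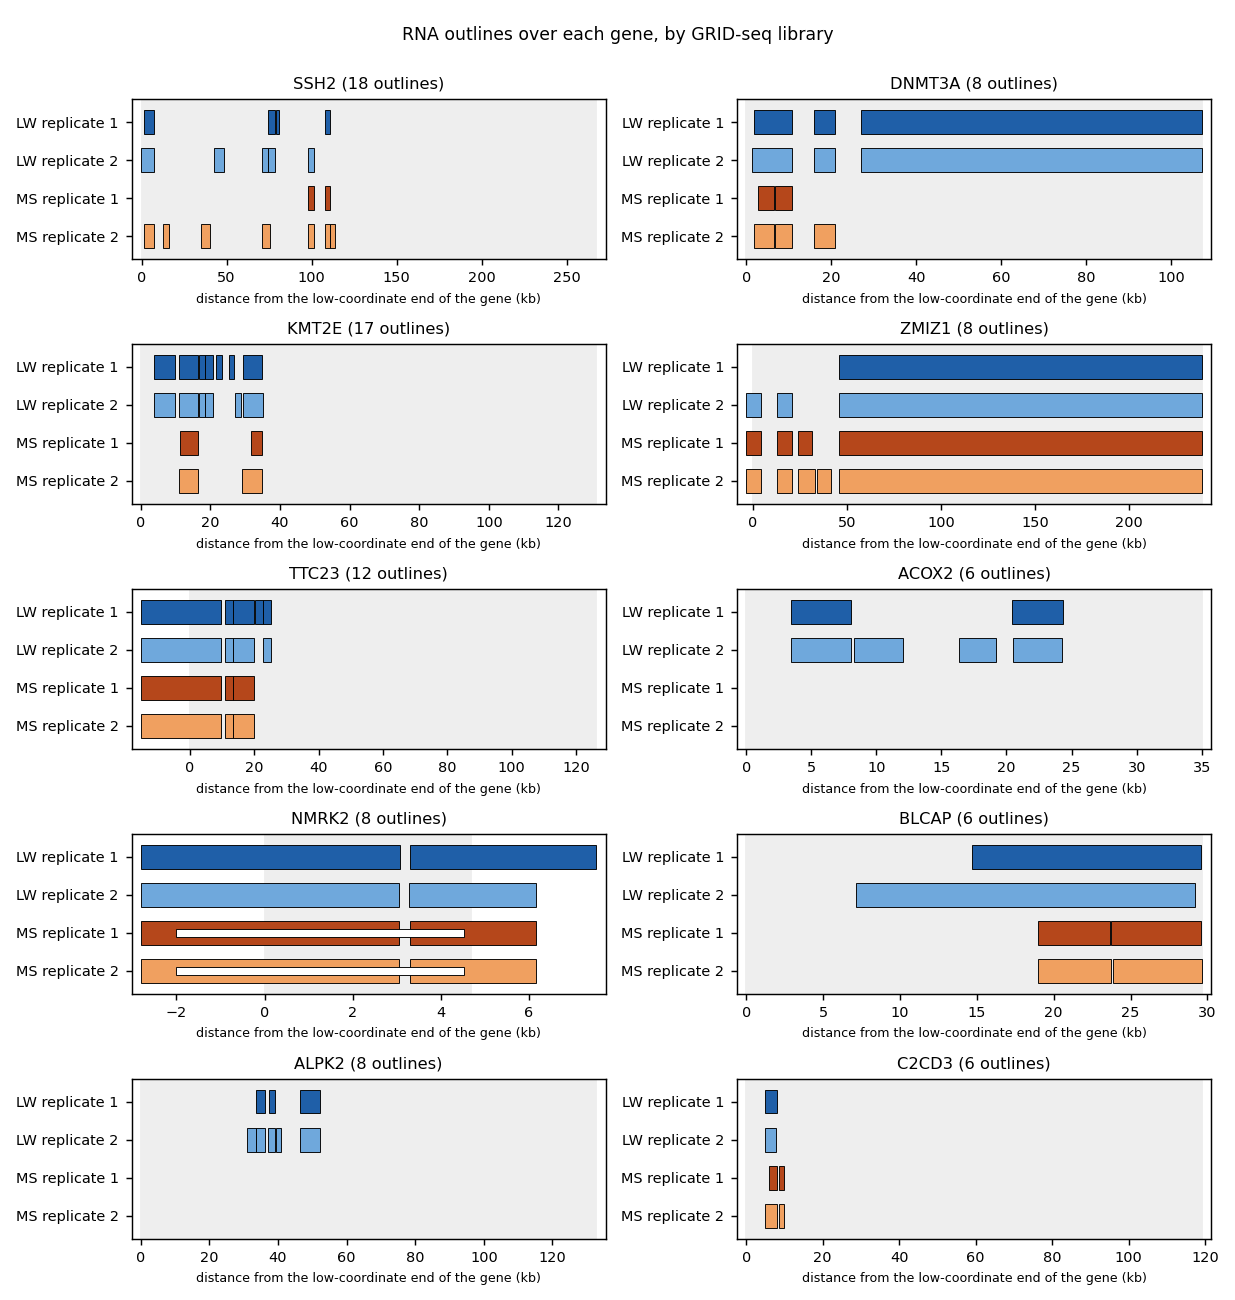
Each panel shows a gene in grey, with the distance from its low-coordinate end in kb on the horizontal axis and a row for each GRID-seq library. Filled bars are listed RNAs on the strand that most outlines of the gene have, and thin white bars are RNAs on the opposite strand, which occur in NMRK2 in both MS libraries. ALPK2 and ACOX2 have bars in the LW libraries only, and the long DNMT3A bar is in the LW libraries only.

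The genes share reads with annotated neighbours. In all, 42 of the 97 outlines also overlapped another gene of the table, tRNA genes left aside. This was so for all 17 outlines of KMT2E (LOC106504991), all 8 of ALPK2 (LOC106509068), all 6 of BLCAP (NNAT), all 6 of C2CD3 (LOC110255397) and 5 of the 12 of TTC23 (SYNM, the gene of the muscle intermediate filament protein synemin). For these RNAs of KMT2E, ALPK2, BLCAP and TTC23 the lists cannot tell the member from the gene it overlaps. LOC110255397 covers only chr9:8401230-8402164. The C2CD3 outlines, within chr9:8398470-8401534 and chr9:8402160-8403468, lie mostly outside it. The outlines of SSH2, NMRK2, DNMT3A, ZMIZ1 and ACOX2 overlapped no such gene.

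DNMT3A (chr3:113501972-113609148) had a long RNA that was listed in LW only. Its named RNA, 80.2 kb long on the plus strand, had 6965 and 7823 reads in the LW libraries, which is 851 and 787 reads per 1000000 listed reads (rpm). This RNA was listed in neither MS library. At the lowest read density of any RNA listed there, an RNA of this length would have had 3106 reads in MS replicate 1 and 3027 in MS replicate 2, so lower levels in MS would not be visible. Nearer the low-coordinate end, a Tx stretch that starts 1.47 kb into the gene was listed in all 4 libraries. It was 1 piece in each LW library, 8944 and 9391 bp long, and 2 pieces in each MS library with gaps of 94 and 77 bp between them. The RNA named ENSSSCG00000041111, which lies between these, had 1200 and 1277 reads in LW, 577 in MS replicate 2 and was not listed in MS replicate 1.

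ZMIZ1 (chr14:81409067-81647808) was also covered by a long named RNA, but in all 4 libraries. This 193-kb RNA had 2190 and 1967 rpm in LW against 2192 and 1992 in MS, and the breeds overlapped on this scale. The pieces near the low-coordinate end of the gene differed more. The RNA named ENSSSCG00000050433, which reaches 3.52 kb past that end, had 78.0 rpm in LW replicate 2 against 179 and 169 in MS, and the Tx stretch 12.6 kb into the gene had 86.2 against 175 and 160. Neither was listed in LW replicate 1. Another Tx stretch, 24.0 kb into the gene, was listed at 152 rpm in both MS libraries and in neither LW library.

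KMT2E (chr9:104876301-105007161) had 17 outlines, all on the minus strand and starting 3.76 to 31.6 kb into a gene of 131 kb. In LW, 7 and 6 pieces were listed with 6486 and 6501 reads, and in MS 2 pieces in each library with 1827 and 2818 reads. The pieces at 10.9 and 29.0 kb into the gene were in all 4 libraries, and those before and between them were listed in LW only. Some of these LW-only listings, at 47.9 to 58.1 rpm, were below the smallest level listed in MS replicate 1, 60.2 rpm. The others, at 63.2 to 124 rpm, were above it.

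SSH2 (chr12:45818103-46085720) had the most outlines, 18, all on the minus strand and none with a gene name. They covered 15.5% of the gene, and the last began 111 kb into its 268 kb. MS replicate 2 had 7 pieces with 4663 reads, MS replicate 1 had 2 with 1019, and the LW libraries had 4 and 5 with 2642 and 3801. Both LW libraries thus lay between the MS libraries, also per listed read, at 323 and 382 rpm against 142 and 497. Of the 9 stretches of SSH2, none was listed in all 4 libraries. Each piece had few reads, 478 to 1057, and 9 of the 18 listings were under 1.5 times the smallest number listed in their library. Over all members this was 33 of 110 listings (30.0%), against 10.7% of the 2420 listings in the lists, of which 385 are Tx RNAs. Measured as density among Tx RNAs, the members lay close to the rest, with 30.4% of member Tx listings and 26.8% of all 385 under 1.5 times the lowest Tx density of the library.

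ALPK2 (chr1:162175241-162308074) had RNAs in LW only, 3 pieces with 3048 reads in replicate 1 and 5 with 4926 in replicate 2, all on the minus strand. The largest, 46.4 kb into the gene, had 173 and 153 rpm. All 8 listings, at 60.5 to 173 rpm, were above the smallest level listed in either MS library, 60.2 and 48.5. Their density of 245 to 469 reads per kb was above the lowest Tx density there as well, 108 and 98.3 reads per kb. RNA at the LW level would thus have passed both minima in MS. Such a level in 1 library did not secure a listing in another, however. The ALPK2 piece 31.1 kb into the gene had 90.7 rpm and 375.5 reads per kb in LW replicate 2. It was not listed in LW replicate 1, where the minima were 53.9 rpm and 96.6 reads per kb. Since no ALPK2 RNA is listed in MS, no fold is given.

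ACOX2 (chr13:40220952-40255967) was likewise listed in LW only, with 2 pieces and 1118 reads in replicate 1 and 4 pieces and 2112 reads in replicate 2. These RNAs lay close to the minimum. Of the 6 listings, at 46.2 to 80.8 rpm, 2 were above the smallest level listed in both MS libraries, so the lists carry little on whether ACOX2 RNA differs between the breeds.

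NMRK2 (chr2:74786642-74791317), at 4.68 kb the shortest member, held the piece with the highest density, with 372 to 1117 reads per kb over its Tx pieces. A Tx RNA that starts 2.81 kb below the gene and one that starts 3.27 kb into it were listed on the plus strand in all 4 libraries. The RNA with the name NMRK2 lies on the minus strand, and it was listed in MS only, with 887 and 1307 reads. Its level of 124 and 139 rpm was above the smallest level listed in either LW library, 53.9 and 44.85 rpm. Reads of both strands were thus listed over the same 4.68 kb in MS, and of the plus strand alone in LW. The gene table gives no strand.

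TTC23 (chr1:137870897-137997201) had 12 outlines on the plus strand, and all lay at its SYNM end. The RNA named ENSSSCG00000035223 spans SYNM and lies in TTC23 for 39.1% of its length. It had 858 and 772 rpm in LW against 1140 and 1025 in MS. Behind it came Tx pieces at 10.9 and 13.4 kb into TTC23 in all 4 libraries. A piece 22.9 kb into the gene was listed in LW only, with 54.4 and 54.9 rpm, close to the minimum.

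BLCAP (chr17:40603977-40633613) was covered by 1 minus-strand piece in each LW library, 14916 and 22064 bp long, with 2122 and 3262 reads. In MS there were 2 pieces in each library, 4703 to 5862 bp long and 83 and 152 bp apart, with 1302 and 1489 reads in sum. C2CD3 (chr9:8393610-8512843) had a plus-strand piece 4.86 kb into the gene in all 4 libraries, with 142 and 124 rpm in LW against 184 and 209 in MS. A second C2CD3 piece, 8.55 kb into the gene, was listed in MS only, at 70.1 and 63.3 rpm.

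To compare the breeds on equal ground, listed intervals of the same strand that overlapped in any library were merged into loci, and the reads of a locus were summed per library. The members had 45 of the 888 loci. Both LW libraries and neither MS library listed 10 of these 45 loci, and both MS libraries and neither LW library listed 3. Over all 888 loci the shares were 11.6% and 10.4%. These shares are no fair background for the members, which were chosen by their outlines over all libraries. ALPK2 and ACOX2 were chosen through LW outlines alone, and each gave several of the 10 loci. No excess in either breed is therefore read from these counts. Of the 45, 11 were listed in all 4 libraries, as were 333 of the 888, and only these were tested. SSH2, ALPK2 and ACOX2 had no such locus.

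Reads per locus differed between the breeds at most loci of the genome. By edgeR's quasi-likelihood test, 41.7% of the 333 loci were called higher in LW and 39.9% higher in MS at an adjusted p under 0.05, or 81.7% in either direction. Of the 11 member loci, 10 were called, 6 higher in LW and 4 higher in MS, which is near that background. Their median log2 fold change, LW over MS, was 0.57, and that of all 333 loci was −0.01. Library size alone in place of TMM factors moved the median of all loci to 0.14 and the calls to 162 higher in LW and 101 higher in MS, from 139 and 133, and the member calls to 7 and 3. With reads summed per RefSeq gene and 0 for RNAs not listed, 83.9% of 491 genes were called, among them 7 of 8 members tested and not SSH2, whose log2 fold change was 0.07 (SE 0.72, edgeR adjusted p = 0.937). Levels in the next paragraphs are TMM-scaled reads per 1000000 reads at the 333 tested loci, and are therefore somewhat above the rpm values given so far. Fold changes are relative to the TMM scale.

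A plus-strand locus over NMRK2 had the largest fold change among the 11 loci when reads were summed. The RNA that carries the name NMRK2 lies on the other strand. The locus 3.27 kb into the gene had 401 and 407 scaled reads in LW against 173 and 165 in MS. The breeds did not overlap, and the log2 fold change was 1.26 (SE 0.03, adjusted p = 3.46e-05 by edgeR). With the largest RNA of each locus in place of the sum it was 1.09, below DNMT3A and BLCAP. In LW replicate 2 the sum of 3247 reads held 2 RNAs, and only the one with 2529 reads overlapped the gene. The RNA of LW replicate 1 ran to chr2:74794169, whereas both MS RNAs ended at chr2:74792790. The summed value thus includes LW reads past the end of the MS outlines. At the other NMRK2 locus, 835 and 820 in LW stood against 487 and 471 in MS, a log2 fold change of 0.79 (SE 0.03, edgeR adjusted p = 8.49e-05). Both plus-strand loci of NMRK2 were therefore higher in LW, whereas the minus-strand RNA was listed in MS only.

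DNMT3A was higher in LW at its tested locus as well, with 313 and 317 scaled reads in LW against 152 and 170 in MS. Its log2 fold change was 0.96 (SE 0.06, edgeR adjusted p = 0.000438), in the same direction as the listing of its long named RNA, and 1.92 with the largest RNA of the locus in place of the sum. In KMT2E, the locus 10.9 kb into the gene had 192 and 180 in LW against 117 and 133 in MS, a log2 fold change of 0.57 (SE 0.08, edgeR adjusted p = 0.00507). The KMT2E locus at 29.0 kb had 268 and 258 in LW against 182 and 254 in MS, and its log2 fold change of 0.26 (SE 0.18) was not called (edgeR adjusted p = 0.239). The MS libraries decide this value, which was 0.05 without replicate 1 (edgeR adjusted p = 0.305) and 0.53 without replicate 2 (edgeR adjusted p = 0.00407).

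The loci that overlap TTC23 went in opposite directions. The RNA that spans SYNM had 974 and 963 scaled reads in LW against 1337 and 1321 in MS, a log2 fold change of −0.46 (SE 0.02, edgeR adjusted p = 0.000109). The next locus, 10.9 kb into TTC23, was also lower in LW, at 220 and 223 against 288 and 275, with a log2 fold change of −0.34 (SE 0.03, edgeR adjusted p = 0.00136). The locus that begins 13.4 kb into the gene, where its pieces follow after gaps of 105 to 218 bp in the same library, was higher in LW, at 345 and 335 against 222 and 200, with a log2 fold change of 0.69 (SE 0.06, edgeR adjusted p = 0.000993). Libraries of the breeds did not overlap at any of the 3 loci, as at 46.8% of all loci with LW higher and 45.3% with MS higher. These directions were the same under library size alone and DESeq2 size factors. Both loci lower in LW also overlap SYNM, which ends at chr1:137883914. The locus higher in LW begins past that end, at chr1:137884338.

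BLCAP was higher in LW, with 295 and 409 scaled reads against 213 and 205, a log2 fold change of 0.76 (SE 0.18, edgeR adjusted p = 0.0233). The value depends on how the MS pieces are joined: with the largest RNA of the locus in place of the sum it was 1.63. Without MS replicate 1 or MS replicate 2, BLCAP was not called (edgeR adjusted p = 0.0602 and 0.0811), and without LW replicate 2 the value was 0.50. C2CD3 was lower in LW, with 162 and 154 against 215 and 270, a log2 fold change of −0.62 (SE 0.13, edgeR adjusted p = 0.0144). That call was lost without either LW library (edgeR adjusted p = 0.0672 without replicate 1 and 0.0831 without replicate 2). Neither was called when loci missing from some libraries were added with 0 there (edgeR adjusted p = 0.13 for BLCAP and 0.0634 for C2CD3). The long ZMIZ1 RNA had 2487 and 2451 in LW and 2570 in both MS libraries, a log2 fold change of −0.06 (SE 0.01, edgeR adjusted p = 0.0155) that turned to 0.08 with library size alone and was not called without MS replicate 1 or 2 (edgeR adjusted p = 0.066 and 0.0642).

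**Figure D2:**
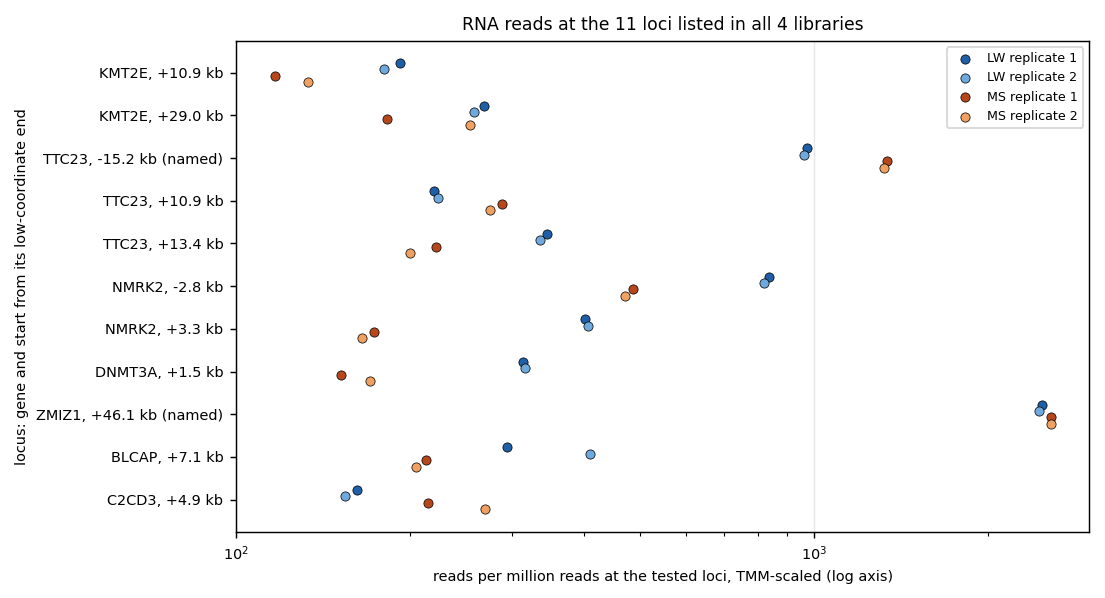
Points are the GRID-seq libraries and rows the 11 loci of the members that were listed in all 4, labelled by gene and by where the locus starts, with TMM-scaled reads per 1000000 reads at the tested loci on a log axis. The plus-strand loci of NMRK2 and the locus of DNMT3A are higher in LW, and the 3 loci of TTC23 differ in direction.

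The contacts of these RNAs stayed near where they were transcribed. For each RNA, the local share is the part of its signal that falls within 10 kb of the outlined interval, and contacts elsewhere on the chromosome are cis and on other chromosomes trans. The median local share over the member RNAs was 79.1% and 86.7% for LW and 84.2% and 75.3% for MS, where all listed RNAs had 90.0%, 83.1%, 92.7% and 86.8%. The member median was lower in 3 of the 4 libraries and higher in LW replicate 2. Among Tx RNAs alone it was lower in all 4, at 80.9% and 88.9% for LW, then 86.4% and 77.2% for MS, where all Tx RNAs had 94.4% and 93.3%, then 95.3% and 90.3%. Trans signal was listed for 1 of the 110 member listings, against 12.9% of all listings. Most member listings are Tx RNAs, for which trans signal was rare throughout, at 0 of 92 over the members and 8 of 385 over the genome. It belonged to the long ZMIZ1 RNA in LW replicate 2, with 22 bins and 0.169% of its signal.

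Members differed in reach. The local share of the SSH2 pieces had a median of 96.1%, and their farthest bins lay 13.1 to 71.0 kb away. The ACOX2 pieces were as confined, with 84.4% to 95.8% local and no bin farther than 24.0 kb. At the other end stood the long ZMIZ1 RNA, with local shares of 38.9% and 34.9% in LW against 43.9% and 40.6% in MS. It had 1649 to 1924 bins, and its farthest bin on the same chromosome lay 2413 to 74990 kb away, depending on the library. The RNA that spans SYNM at the end of TTC23 reached 31040 kb in MS replicate 2, and 558 to 1238 kb in the other libraries. The long DNMT3A RNA, at 59.4% and 57.2% local in LW, reached 710 and 413 kb. The short NMRK2 RNA that starts below the gene had as little as 48.4% and 44.1% local signal in LW, over 341 and 423 bins, and 78.7% and 54.3% in MS over 75 and 271 bins. For this NMRK2 RNA the libraries with more reads had more bins, which was not so for the long DNMT3A RNA (649 bins at 6965 reads and 631 at 7823), and the part of read depth in these differences was not tested. The minus-strand NMRK2 RNA stayed at 100% and 99.1% local in the same MS libraries.

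A few pieces had their strongest contact outside their own interval. The highest bin lay inside the RNA for 101 of the 110 member listings (91.8%), against 95.7% of all listings. It was over 10 kb away for 2 of them. An SSH2 piece in MS replicate 1, 108 kb into the gene, had no local signal, and its highest bin lay 40.1 kb away inside SSH2. A KMT2E piece in LW replicate 1, 25.5 kb into the gene, had 12.4% local signal, with its highest bin 15.8 kb away. These RNAs had 26 and 22 bins. The same SSH2 stretch had 72.5% and 75.3% local signal in the other libraries that listed it, and the KMT2E stretch was listed in no other library.

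**Figure D3:**
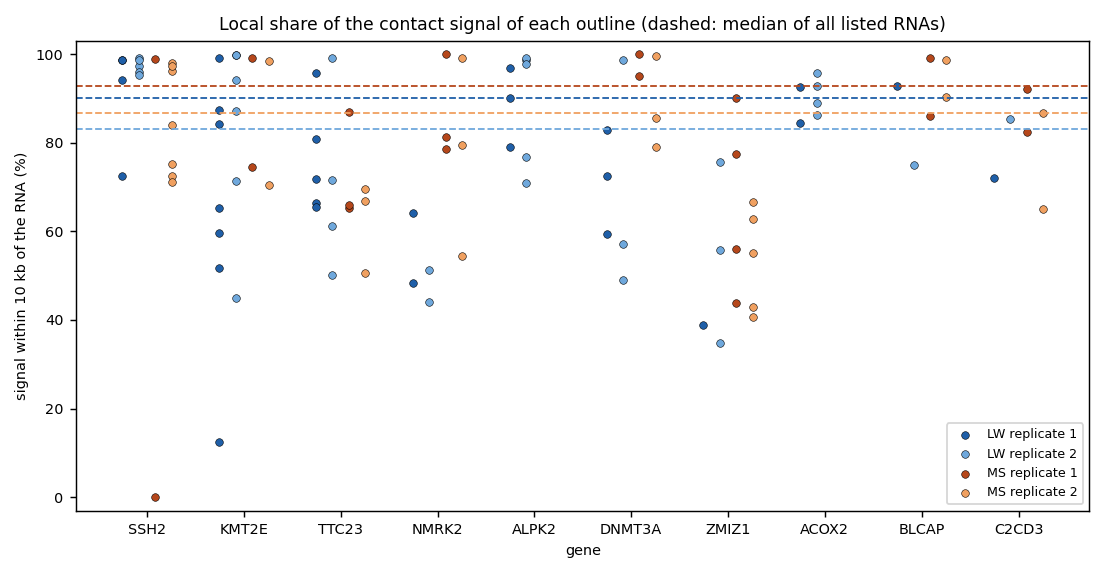
The share of the contact signal within 10 kb of each RNA, in percent, is plotted for every listed RNA of each gene, coloured by library, with dashed lines at the median of all listed RNAs of that library. Most SSH2 and ACOX2 points lie above 80%, the ZMIZ1 points lie mostly below, and single points of KMT2E (12.4%) and SSH2 (0.0%) stand apart.

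Loops with an anchor in or near the members were unevenly spread. SSH2 had the most, 56 and 48 for LW and 56 and 37 for MS, followed by ZMIZ1 with 52 and 48 for LW and 47 and 39 for MS. At the low end, NMRK2 had 2 and 3 in each breed, ACOX2 had 5 and 3 in LW against 2 and 1 in MS, and BLCAP had 4 and 3 in LW and none in MS. The other members had 6 to 29 loops per library. Per 100 kb of gene, the union over all libraries ranged from 15.8 loops for BLCAP and 21.1 for KMT2E to 54.0 for ZMIZ1, and it was 89.9 for the short gene NMRK2. For SSH2, 102 of 131 loops had both anchors inside the gene.

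Few of these loops were called in every library. TTC23 had the most, 8 of 54. From the SYNM end, at chr1:137855001-137860000, loops ran to 3 anchors inside TTC23 in all 4 libraries. The strongest of these, to the anchor at chr1:137925001-137930000, had −log10 values of 49.8 and 183 in LW against 49.6 and 233 in MS. Another TTC23 loop in all libraries ended at LOC110261474. C2CD3 had 3 such loops, of which 1 joined its first 10 kb to DNAJB13 and UCP2, the gene of a mitochondrial uncoupling protein, with −log10 values of 2.34 and 12.9 in LW against 4.21 and 5.68 in MS. NMRK2 was joined in all 4 libraries to ATCAY and LOC106509459, 20.0 kb away, ZMIZ1 to LOC106506054 and ACOX2 to KCTD6, and the loops shared by all libraries in SSH2, KMT2E, ALPK2 and DNMT3A stayed inside the gene. BLCAP had none.

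The loop score of a gene is the sum of the −log10 listed value over its loops. No gene of the 16623 tested passed an adjusted p under 0.05 by limma, whereas 6.26% had an unadjusted p under 0.05. Under the thresholds of the study, a log2 fold change above 1.5 with an unadjusted p under 0.05, 3.65% of genes were higher in LW and 2.62% higher in MS. By this rule BLCAP and ACOX2 were higher in LW and no member was higher in MS. The score of BLCAP was 21.8 and 15.5 in LW and 0 in both MS libraries (limma adjusted p = 0.577). NNAT, which lies inside BLCAP, had the same scores, so these loops cannot be told from those of NNAT. The loops of BLCAP are listed in LW alone and no fold is given. ACOX2 had 40.4 and 28.7 in LW against 7.22 and 5.64 in MS, a log2 fold change of 1.82 (SE 0.64, limma adjusted p = 0.723). The breeds did not overlap in either gene or in ZMIZ1 (359 and 453 for LW, 283 and 338 for MS), which holds for 25.1% of all genes with LW higher and 6.68% with MS higher. Without LW replicate 2, 1 of these 2 genes passed the rule.

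The remaining 8 members had log2 fold changes of −0.61 to 0.17 in loop score, with SEs of 0.64 to 1.19 and limma adjusted p-values of 0.955 to 1. Before quantile normalization, both replicate 2 libraries had higher scores than both replicate 1 libraries in TTC23, NMRK2, KMT2E, C2CD3 and ALPK2. How often this occurs among all tested genes was not counted, so it is not shown to be particular to the members. TTC23 had 316 and 270 in the replicate 1 libraries of LW and MS and 772 and 782 in the replicate 2 libraries, and NMRK2 had 11.9 and 9.12 against 36.2 and 64.6. KMT2E had 52.1 and 57.2 against 77.5 and 110, C2CD3 had 122 and 105 against 248 and 140, and ALPK2 had 170 and 119 against 179 and 231. After quantile normalization ALPK2 no longer showed this order, at 166 and 146 in the replicate 1 libraries against 153 and 227. What the replicate number stands for is not given. RNA reads were higher in LW at the plus-strand loci of NMRK2 and at the tested locus of DNMT3A. The minus-strand NMRK2 RNA was listed in MS only. The loop scores of NMRK2 and DNMT3A did not differ between the breeds beyond the spread of the libraries. At DNMT3A the score was 48.6 and 67.1 in LW against 57.8 and 44.0 in MS.

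**Figure D4:**
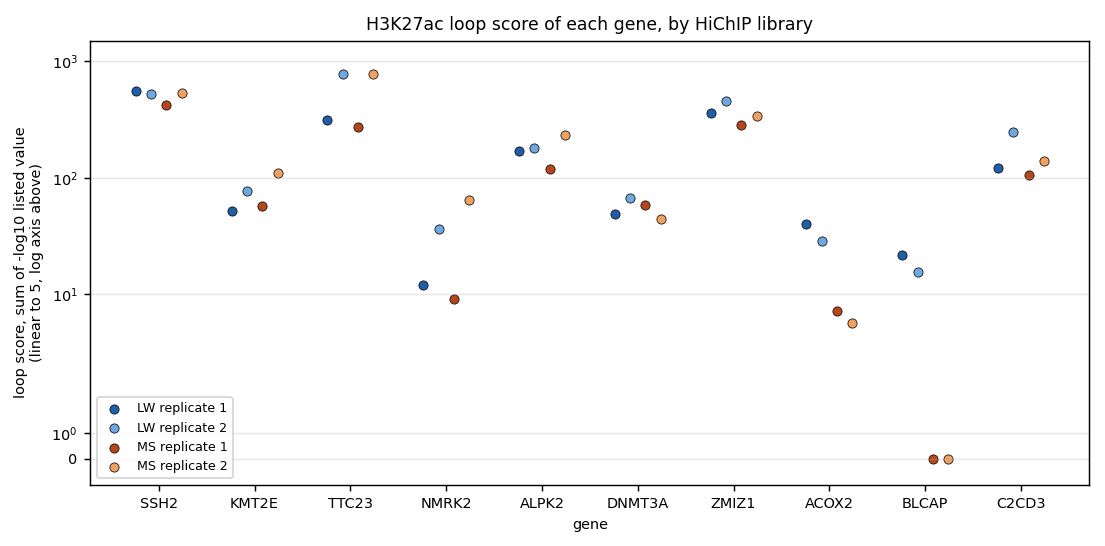
The loop score, the sum of −log10 listed value over the loops of a gene, is shown for each HiChIP library on an axis that is linear to 5 and logarithmic above. BLCAP is at 0 in both MS libraries, ACOX2 is lower in MS, and in TTC23 and NMRK2 the replicate 2 libraries of both breeds lie above the replicate 1 libraries.

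The anchors of these loops were set against the outlined stretches. Each gene, with 1 kb on either side, was cut into the 5-kb bins of the loop lists, and the ends of all loops of the 4 libraries were counted per bin. Over the 10 genes, 118 bins that overlapped an outline held 496 loop ends, and the other 134 held 303, or 2.26 each. In KMT2E the counts were concentrated on the outlined stretch, with 32 ends on 7 outlined bins and 9 on the other 20, or 4.57 against 0.45 per bin. In SSH2 it was 8.36 against 2.83 and in ALPK2 30 ends on 5 bins stood against 78 on the other 23. In TTC23 21 ends on 7 bins stood against 57 on the other 20, and in ACOX2 it went the other way, with 0.833 against 1.67 per bin. Long RNAs leave only 1 bin without an outline in DNMT3A and in ZMIZ1, and none in NMRK2, so nothing can be compared there. These are counts within genes and carry no test.

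Single anchors stood out within some genes. In C2CD3, the anchor at chr9:8395001-8400000, which holds the start of its first outlined piece, had 17 loop ends, 5 and 10 in LW against 4 and 11 in MS, and the next highest had 7. In SSH2 the anchor 11.9 kb into the gene had 24 loop ends, with 11 and 11 in LW against 12 and 11 in MS, and only MS replicate 2 listed an RNA over it. The KMT2E anchor at chr9:104910001-104915000, at the far end of its outlined stretch, had 0 and 5 in LW against 1 and 8 in MS, where again the replicate 2 libraries were the higher ones.

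**Figure D5:**
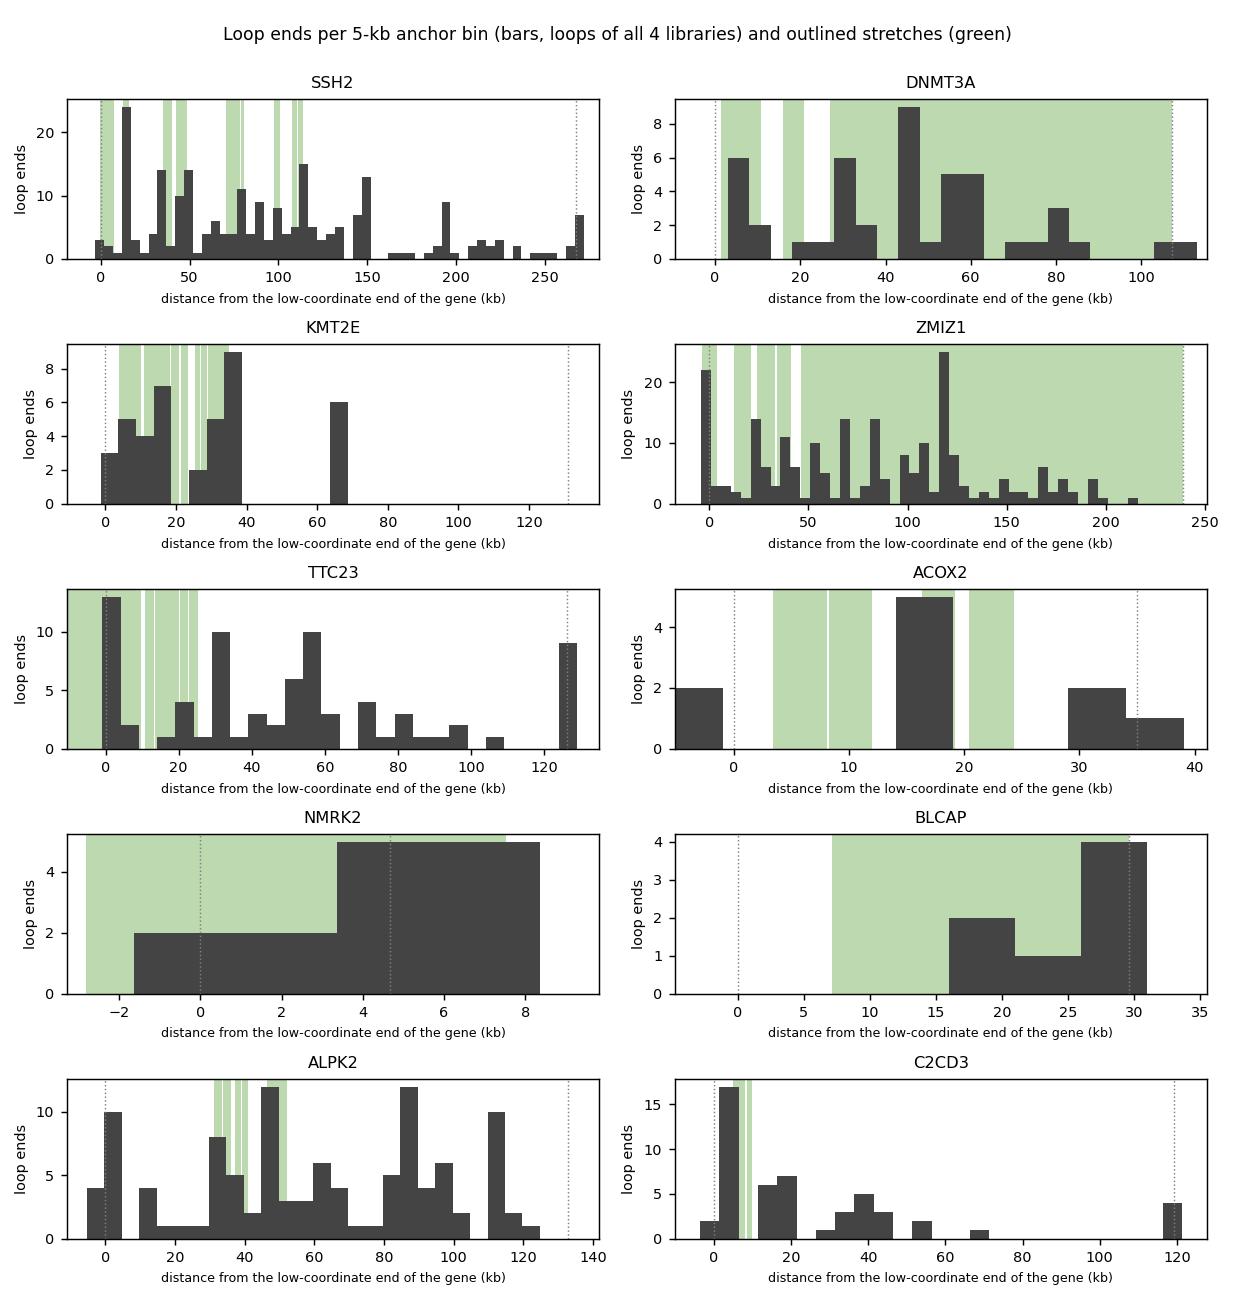
Bars count loop ends per 5-kb anchor bin along each gene, from the union of loops over the 4 HiChIP libraries, against the distance from the low-coordinate end in kb, with outlined stretches in green and the gene ends as dotted lines. In KMT2E most loop ends fall on the green stretch, in TTC23 many fall beyond it, and in ZMIZ1 green covers nearly the whole gene.

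Loops can also be read at their far anchors, where a member's own RNA may or may not be listed. In LW, 76 of the 119 far anchors of the 10 members (63.9%) held a bin contacted by RNA of that member, and for other genes with an RNA and a loop this was 67.2%. In MS, 66 of 85 far anchors (77.6%) of the 8 members with an RNA did so, against 63.9% for other genes. The shares thus lie on both sides of that of other genes. All 27 LW and all 18 MS far anchors of ZMIZ1 held its RNA. None of the 11 LW far anchors of ALPK2 and none of the 3 of BLCAP did.

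The relatives of these genes were looked at as lists. Of the 9 listed regulators and targets of the cofilin pathway besides SSH2, CFL2, the cofilin of muscle, had an RNA, with 1 outline and 1444 and 1589 reads in LW against 896 and 1078 in MS. Among the alpha kinases besides ALPK2, ALPK3 was overlapped by 2 listed RNAs, one named ENSSSCG00000041322 and one named ZNF592 that was not listed in LW replicate 1. Together they form a locus with a log2 fold change of −1.33 (SE 0.44) that was not called (edgeR adjusted p = 0.0548), and the reads of ALPK3 cannot be told from those of the ZNF592 RNA. None of the 7 KMT2 and SET family genes, 6 DNA methylation genes, 5 PIAS-like genes, 7 NAD salvage genes, 7 peroxisomal oxidation genes and 8 centriole and cilium genes had a listed RNA. Genes with some loop in each of the 4 libraries were also counted, where the loop did not have to be the same one. They were 6 of the 7 KMT2 and SET genes, 7 of the 9 cofilin genes and 5 of the 7 NAD salvage genes. Among DNA methylation genes they were 4 of the 6, and among alpha kinases 3 of the 5. This was so for 2 of the 5 PIAS-like, 2 of the 7 peroxisomal and 1 of the 8 centriole and cilium genes. The share over all genes was not computed, so these counts have no background.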

How the data were processed

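Longissimus muscle of LW and MS piglets was profiled with 2 libraries per breed in each assay. The files come from 12 samples, since the DNA and RNA ends of a GRID-seq library are separate samples and the list of both stands under the DNA end. For BL-HiChIP the authors trimmed the linker, mapped with BWA-MEM to Sscrofa11.1, removed duplicates with Pairtools and called loops per library with FitHiChIP. The value the authors deposited per loop ends at 0.01 and was read as a p-value after adjustment (q-value). For GRID-seq the authors mapped both ends with Bowtie2 and corrected for background. The submitters' processing notes name Bowtie2 2.2.5, Trim Galore 0.4.5, SAMtools 1.9 and MACS2 2.1.2. The lists have no column names. The whole number the authors deposited per RNA was read as its read count, and the value per 1-kb bin as a background-corrected signal, relative to the reads of that RNA.

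Genes were placed by a RefSeq table (Sscrofa11.1) without strand. No genome or sequence table was used. The members and gene lists were chosen with earlier results of these data known, and support nothing by themselves. Named genes are the members, the 5 non-members with the most outlines (ties by name), genes that overlap a member, genes at far anchors of loops in all 4 libraries and listed genes with an RNA. KIAA0232, SPEG, SYNM and LOC102165734 were named for the values next to the threshold, chosen after their values were seen.

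Reads per locus were tested with edgeR 4.0.16 (TMM, quasi-likelihood) over the 333 loci listed in all 4 libraries, and loop scores with limma 3.58.1 on log2(score + 1) after quantile normalization over 16623 genes, both with Benjamini-Hochberg adjustment, in R 4.3.3. A fold change on the log2(score + 1) scale understates that of low genes. Alternatives covered DESeq2 1.42.0, scaling, windows, filters, the pseudocount, a replicate block and leaving out each library. An exact permutation test of 2 libraries against 2 cannot give a p below 0.333. On simulated counts for the reads of 333 loci, edgeR recovered 94% of loci changed by 0.5 on the log2 scale and called 5.26% of unchanged ones. On simulated loop scores, limma called 0% of genes changed by 3 or 6 on the log2 scale at an adjusted p under 0.05. The thresholds of the study called 71% and 77% of them, in either direction, and 4.01% of unchanged genes. The simulated log2 values were cut at 0, so decreases in genes with low scores were smaller than set.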

Additional observations from a re-analysis of the deposited data

How the results depend on the processing

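Of the 99 alternative fold changes in reads at the 11 loci, 87 kept their direction and side of the threshold, and the long ZMIZ1 RNA reversed, to 0.0831 with library size alone. Loci called higher in MS numbered 208 with reads summed per RefSeq gene (133 with loci), while those higher in LW went from 139 to 204, and member loci higher in MS numbered 2 with 0 for unlisted RNAs (4 with loci listed in all 4). With sums per gene the log2 fold change was 2.86 for DNMT3A, 1.33 for KMT2E and −1.03 for C2CD3, where RNAs that are not listed count as 0. Leaving out a library left 1 sample in its breed, taken to vary like the others, and gave 5 to 6 member loci higher in LW and 3 in MS.

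For the loop score, the thresholds of the study gave 1106 genes higher in LW and 241 in MS without quantile normalization, 165 and 171 with DESeq2, and 521 and 924 with a pseudocount of 0.1. Leaving out a library gave 476 to 854 genes in MS, the highest without MS replicate 2, and 1 to 2 members in LW, the lowest without LW replicate 2. With anchors at gene ends, 1 member passed in LW. DESeq2 called 1 gene at an adjusted p under 0.05. Fold changes in loop score reversed, without any call, at gene ends (SSH2 0.53, KMT2E 1.00, C2CD3 −1.57) and without quantile normalization (SSH2 0.18, TTC23 0.10, ALPK2 0.0765, DNMT3A 0.18). Leaving out each library in turn gave ranges that crossed 0, of −0.37 to 0.24 for SSH2, −0.68 to 0.41 for TTC23, −2.01 to 0.77 for NMRK2, −0.52 to 0.13 for ALPK2, −0.46 to 0.10 for DNMT3A and −0.25 to 0.63 for C2CD3. The cause was not tested.

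The median local share was 52.2% and 55.1% for LW, then 47.6% and 40.7% for MS, when bins were counted (47.5% and 38.7%, then 51.0% and 41.9%, over all listed RNAs, so that the members were higher in both LW libraries), and 100% in every library within 100 kb or with the whole gene as reference. Outlines numbered 49 at 50% overlap. Member loops numbered 72 in LW and 56 in MS at gene ends, and 60 and 51 when both libraries were required.

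With the replicate block, member loci called were 6 higher in LW and 3 higher in MS, as the ZMIZ1 RNA was lost at −0.06 (edgeR adjusted p = 0.0607), and no other call on a member changed. Deviations of same-numbered libraries correlated at 0.652 over loci and 0.374 over loop scores. There are only 2 pairs, and the labels give same-numbered libraries no shared batch. What lies behind these correlations was not tested.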
